A study of Mus musculus with 6 samples.

Results

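DNA replication and G1/S genes are the enzymes, loading factors and regulators that a cell makes to copy its genome, and 36 of them were followed here in KP1, a mouse small cell lung cancer cell line from a triple knockout model lacking Rb, p53 and p130. They were listed by name, grouped by role, and read at the brightest probe set that carried their symbol alone, by the mean over 6 arrays. Of the 36 genes, 34 had such a probe set, among 22180 genes in all. Rfc4, a clamp loader subunit, and Ccne2, a cyclin E, had none and were not analysed here. The N1ICD cells were transfected with a vector that expresses the intracellular domain of Notch1 and, from the same transcript, GFP (N1ICD, 3 arrays). The control cells received the vector with GFP alone (3 arrays). Both groups were sorted for GFP 48 hours after transfection, both carry the knockouts, and both are the same line. The sources do not name the promoter in the vector. The labels call the samples of a group biological replicates without saying whether they came from separate cultures, and the p-values measure the spread between these samples.

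Replication is prepared in G1, when ORC, CDC6 and CDT1 load the MCM helicase onto origins, and starts in S phase, when kinases such as CDC7, with MCM10, CDC45 and the GINS complex, activate that helicase. Polymerase alpha with its primase lays down primers, the clamp PCNA and its loader hold the polymerases on the template, and ribonucleotide reductase and thymidylate synthase supply the nucleotides. Many of these genes are transcribed in a burst at the G1/S border by E2F factors, which the RB family holds in check, so a tumor without Rb and p130 has lost much of that brake.

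The arrays were alike in scale. The median log2 expression over genes was 6.19 to 6.24 in N1ICD arrays and 6.14 to 6.20 in control arrays, and the correlation across genes was 0.991 to 0.994 within groups and 0.98 to 0.984 between them. The number of arrays limits the precision. Notch1 had log2 values of 8.07, 7.49 and 7.72 in N1ICD arrays, against 6.35, 6.20 and 5.96 in control arrays, in the direction of the labels (log2 difference 1.59 ± 0.17 SE, limma, adjusted p = 0.000889), although the part of Notch1 that the probe set covers is not known. Of 12 neuroendocrine markers 3 rose (Resp18 by 0.65, Chga by 0.64 and Ncam1 by 0.53 on the log2 scale) and 2 fell (Dll3, -1.43, and Insm1, -0.89). Chga averaged 12.45 in N1ICD and 11.81 in control arrays. Among markers of other cell types, the mean log2 level of 9 endothelial markers was 6.04 to 6.12 in N1ICD arrays and 5.52 to 5.63 in control arrays. Kdr and Tek rose (log2 differences 3.04 and 1.06), whereas Pecam1 (0.07) and Cdh5 (-0.01) did not pass the test. The means of 12 macrophage and leukocyte markers were 4.97 to 5.12 against 4.90 to 5.01, with Lyz2 higher by 0.52. For 9 fibroblast markers they were 5.58 to 5.72 against 5.58 to 5.67, while Pdgfrb rose (0.89) and Pdgfra fell (-0.74). For 8 alveolar and airway markers they were 5.66 to 5.78 against 5.57 to 5.75, while Scgb1a1 (1.23) and Hopx (0.38) rose and Sftpc fell (-1.71). The part of other cells in the values below was not tested.

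Replication genes were slightly lower in N1ICD cells, nearly all in the same direction and by small amounts. The median log2 difference over the 34 genes was -0.26, which is 0.834 of the control level, beside -0.02 for all genes tested. A lower mean in N1ICD was found for 33 of the 34 genes, beside 54.5% of all genes. The number was 32 after a further quantile normalization or cyclic loess and without N1ICD replicate 2, where Gins2 turned positive, and without N1ICD replicate 1, where Rfc2 did. All 3 N1ICD arrays lay below all 3 control arrays for 26 of the 34 (15% of all genes), and the opposite held for 0 (11.1%). The test was limma across all genes with a threshold of 0.05 on the adjusted p, which called 7.1% of all genes in either direction. These were 848 higher and 726 lower, a balance that scaling moved to 730 and 948 with equal array medians and to 955 and 606 after cyclic loess. Of the members 6 fell (3.27% of all genes), namely Rrm2, E2f8, Cdc6, Rad51ap1, Exo1 and Clspn, and 0 rose (3.82%). Leaving out 1 array at a time gave 0 to 3 members that fell, with 0 without N1ICD replicate 2 or control replicate 3. After cyclic loess 4 fell, and Clspn and E2f8 did not pass (adjusted p = 0.0595 and 0.0591). At an unadjusted p under 0.05, 19 members were lower (11.2% of all genes) and 0 higher (8.67%). Every member was brighter than the 40th percentile of gene means, and of the 13308 genes above it 57.6% had a lower mean, 21.6% lay entirely below control, 15.9% were lower at an unadjusted p under 0.05 and 5.12% were called lower. The members' own shares were 97.1%, 76.5%, 55.9% and 17.6%. The members were chosen with earlier results of these data known, so these shares are a description with no test. In RNA from many cells, fewer cells in S phase and less RNA per cell cannot be told apart.

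**Figure D1:**
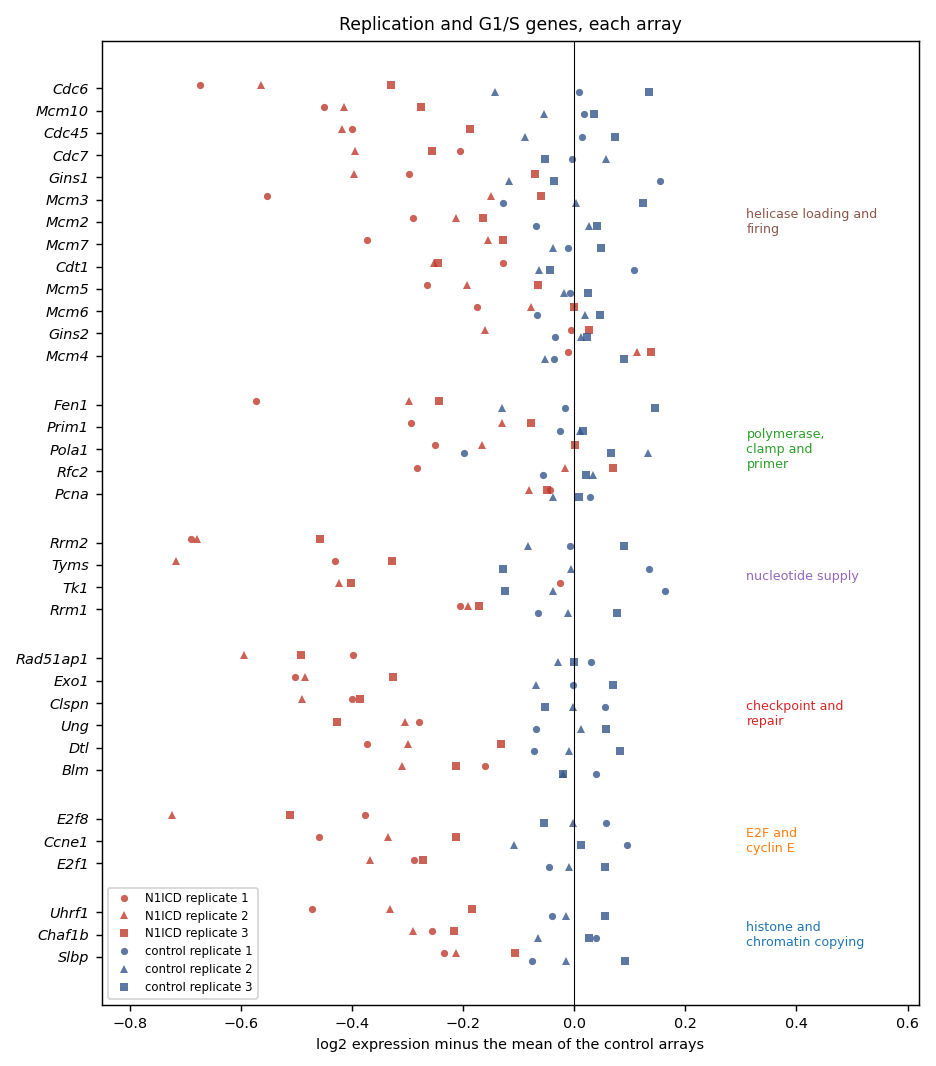
Log2 expression of each of the 34 measured genes on each array, as the difference from the mean of the control arrays of that gene (horizontal axis); genes run down the page by role, and symbols mark the replicate. N1ICD points lie left of the control points for 26 genes and overlap them for the other 8, among them Mcm4, Mcm6, Gins2, Rfc2 and Pola1.

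**Figure D2:**
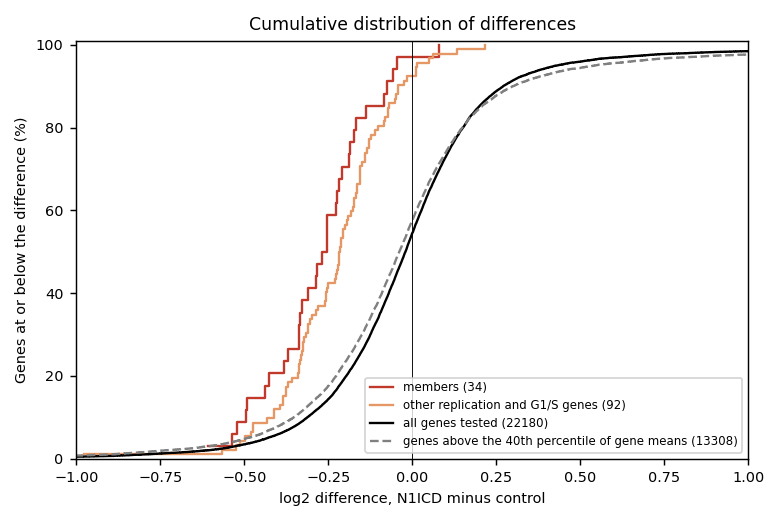
Cumulative share of genes (vertical axis, percent) by log2 difference, N1ICD minus control (horizontal axis, shown from -1 to 1), for the 34 members, 92 other replication and G1/S genes, all 22180 genes tested and the 13308 genes above the 40th percentile of gene means. Both replication curves lie left of the others around their medians, which are -0.26 and -0.22 against -0.02 and -0.04. In the left tail this does not hold, as the lowest member is at -0.61 and the lowest of all genes at -1.99.

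Helicase loading and firing genes were 13 members, of which 1 fell, 12 had a lower mean and 8 had groups that did not overlap (median log2 difference -0.22, from -0.52 to 0.08). The share called, 7.69%, was near the 5.12% of genes above the 40th percentile, and the share with separate groups was 61.5%, beside 21.6%. Cdc6, the ATPase that recruits the MCM helicase to origins, had log2 values of 8.58, 8.69 and 8.93 in N1ICD arrays, against 9.27, 9.12 and 9.39 in control arrays. Its groups were separate, with N1ICD replicate 3 nearest to control, and it fell to 0.696 of the control level (log2 difference -0.52 ± 0.12 SE, adjusted p = 0.0436). This call held without N1ICD replicate 3 (adjusted p = 0.0377) and was lost without any other array (up to 0.149). Mcm10, which binds the helicase as it is activated, had 8.29, 8.33 and 8.47 in N1ICD arrays and 8.76, 8.69 and 8.78 in control arrays. The groups did not overlap and the log2 difference was -0.38 ± 0.10, just outside the threshold (adjusted p = 0.0525). Cdc45, a subunit of the active helicase, differed by -0.33 (95% confidence interval -0.58 to -0.09) and Cdc7, the kinase that fires origins, by -0.29 (-0.51 to -0.06), neither past the threshold (adjusted p = 0.113 and 0.139). For Cdt1, the partner of CDC6 in loading, the difference was -0.21 (-0.43 to 0.02).

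None of the 6 subunits of the MCM helicase ring passed the test. Mcm3, Mcm2, Mcm7, Mcm5 and Mcm6 had log2 differences of -0.25, -0.22, -0.22, -0.17 and -0.08 (smallest adjusted p = 0.226, for Mcm2). Mcm4 was the exception among the 34 genes in having a higher mean. Its values were 10.77, 10.90 and 10.92 in N1ICD arrays and 10.75, 10.73 and 10.87 in control arrays, which overlap, and its difference was 0.08 ± 0.10 (95% confidence interval -0.14 to 0.30, adjusted p = 0.727). Within each array, Mcm4 minus the mean of the other 5 subunits was 0.23, 0.18 and 0.13 in N1ICD arrays, against -0.07, -0.14 and -0.06 in control arrays. Mcm4 was picked for its higher mean, so this offset is a description with no test, and the confidence intervals of the 6 subunits overlap. Of the GINS subunits, Gins1 differed by -0.26 (95% confidence interval -0.54 to 0.03), while Gins2 was among the genes nearest to 0. Gins2 had 8.76, 8.60 and 8.79 in N1ICD arrays and 8.73, 8.77 and 8.78 in control arrays, so the groups overlapped (-0.05 ± 0.10, interval -0.27 to 0.17, adjusted p = 0.851).

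Promoters are shown because E2F factors are known regulators of many of these genes, so a high share of matches goes with the choice of the list. RefSeq promoter windows of build GRCm38.p6, from 250 bases before to 50 bases after a listed start, covered 29 of the 34 measured members. Some genes had more than 1 listed start, with 33 windows for the 29 genes. These windows were searched on both strands for the 4 forms TTTCGCGC, TTTGGCGC, TTTCCCGC and TTTGCCGC. A listed start can lie inside the gene as annotated. The whole window did so for Cdc6, E2f1 and E2f8, so the bases before their annotated starts were not searched. The Uhrf1 window with a match also lies inside the gene. Of the matches printed below, those of Dtl, Mcm5 and Mcm6 lie before the annotated start, and the others lie inside the gene as annotated. At least 1 match was present for 10 of the 29 genes (34.5%), beside 554 of 16990 tested genes with a window (3.26%). It was present for 27 of 75 other replication and G1/S genes (36%). Among genes called lower the share was 24 of 575 (4.17%), and among those called higher 15 of 650 (2.31%). Median GC content was 61.3% in member windows and 56.7% in those of tested genes. Whether the matches relate to the shift in N1ICD was not tested. The first match of each of the 10 genes, with its flanks, reads 5′ to 3′ on the gene's strand as follows, with E2F letters in capitals.
Cdc6, chr11:98908002-98908031 (+): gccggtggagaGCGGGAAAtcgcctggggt
Cdt1, chr8:122568035-122568064 (+): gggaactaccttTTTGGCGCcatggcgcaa
Mcm3, chr1:20820275-20820304 (-): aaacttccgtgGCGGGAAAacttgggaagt
Mcm5, chr8:75109345-75109374 (+): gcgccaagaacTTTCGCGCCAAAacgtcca
Mcm6, chr1:128359797-128359826 (-): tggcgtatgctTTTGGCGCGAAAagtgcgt
Mcm7, chr5:138172030-138172059 (-): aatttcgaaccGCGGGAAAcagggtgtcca
Pola1, chrX:93632275-93632304 (-): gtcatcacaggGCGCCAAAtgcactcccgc
Clspn, chr4:126556990-126557019 (+): accgcgtctggGCGCGAAAgctcgaacttc
Dtl, chr1:191575534-191575563 (-): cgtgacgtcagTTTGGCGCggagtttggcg
Uhrf1, chr17:56304117-56304146 (+): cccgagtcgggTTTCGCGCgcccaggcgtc
In Mcm5 and Mcm6 a match on each strand overlaps the other, so that the capitals run longer. Mcm6 had 3 matches, and Mcm3, Mcm5 and Mcm7 had 2 each.

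Members with and without these letters had differences in the same range. The 10 genes with an E2F match had a median log2 difference of -0.24 (from -0.52 to -0.08), with 2 called lower, Cdc6 and Clspn. The 19 genes with no match in the windows searched had a median of -0.31 (from -0.61 to -0.06), with 3 called lower, Rrm2, E2f8 and Rad51ap1. The 250 bases before the listed start are printed for 2 helicase genes with unlike values. These are Cdc6, which fell and has 1 match, and Mcm6, which has 3 matches and a difference of -0.08 that did not pass the test. For Cdc6 the printed stretch lies inside the gene as annotated. E2F letters are in capitals.
Cdc6, chr11:98907901-98908150 (+): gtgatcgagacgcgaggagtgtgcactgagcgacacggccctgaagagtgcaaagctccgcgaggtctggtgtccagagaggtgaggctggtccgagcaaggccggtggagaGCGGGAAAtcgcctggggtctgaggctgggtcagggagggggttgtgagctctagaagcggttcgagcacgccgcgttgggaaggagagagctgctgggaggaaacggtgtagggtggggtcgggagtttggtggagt
Mcm6, chr1:128359706-128359955 (-): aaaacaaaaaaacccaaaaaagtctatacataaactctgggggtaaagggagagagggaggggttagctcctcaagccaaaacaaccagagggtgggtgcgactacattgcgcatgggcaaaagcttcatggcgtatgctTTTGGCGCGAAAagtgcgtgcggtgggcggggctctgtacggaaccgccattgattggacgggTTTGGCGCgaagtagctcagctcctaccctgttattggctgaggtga
A CCAAT box (CCAAT on either strand) was present for 19 of the 29 members (65.5%) and 41.6% of tested genes. Among the 75 other replication and G1/S genes it was present for 36 (48%). The element TTTGAA, known from late cell cycle promoters, was present for 5 members (17.2%), 13 of those 75 genes (17.3%) and 17.8% of tested genes. GTGGGAA is the core of the site of RBPJ, the DNA-binding partner of the Notch1 intracellular domain. This core was present for 2 members (6.9%), 10 of the 75 other replication and G1/S genes (13.3%) and 7.09% of tested genes. A match is a string of letters in this window and does not show that a factor binds there.

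Polymerase, clamp and primer genes differed least by median. Of 5 members measured, 0 passed the test, 5 had a lower mean and 3 had groups that did not overlap (median log2 difference -0.14, from -0.37 to -0.06). Shares called, separate and with a lower mean were 0%, 60% and 100%, beside 5.12%, 21.6% and 57.6% above the 40th percentile. Fen1, the flap nuclease that trims Okazaki fragments, had 7.79, 8.07 and 8.12 in N1ICD arrays, against 8.35, 8.23 and 8.51 in control arrays. These do not overlap, and the difference was -0.37 ± 0.12 (adjusted p = 0.136), with -0.25 at a second, dimmer probe set. Prim1, the catalytic primase subunit, had 10.16, 10.32 and 10.37 in N1ICD arrays and 10.43, 10.46 and 10.47 in control arrays, separate by a small gap (-0.17 ± 0.10, adjusted p = 0.404). Pcna, the sliding clamp and a common proliferation marker, had 11.89, 11.85 and 11.88 in N1ICD arrays and 11.96, 11.89 and 11.94 in control arrays. Its groups touched without overlapping, and its difference of -0.06 (95% confidence interval -0.26 to 0.14, adjusted p = 0.786) did not pass the test. Pola1, the catalytic subunit of polymerase alpha, differed by -0.14 and the clamp loader subunit Rfc2 by -0.08, with overlapping groups. Without N1ICD replicate 1 the difference of Rfc2 was 0.03.

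Nucleotide supply held the member with the largest fall. Of 4 members 1 fell, 4 had a lower mean and 3 had separate groups (median log2 difference -0.39, from -0.61 to -0.19). Their share called was 25%, beside 5.12% of genes above the 40th percentile, and with separate groups 75%, beside 21.6%. Rrm2, the small subunit of ribonucleotide reductase, whose level rises and falls with S phase, had 9.55, 9.56 and 9.78 in N1ICD arrays, against 10.23, 10.16 and 10.33 in control arrays, with a wide gap between the groups. It fell to 0.656 of the control level (-0.61 ± 0.11, adjusted p = 0.0124). Leaving out N1ICD replicate 2 or control replicate 3 ended the call (adjusted p = 0.0578 and 0.0555), and a second, dimmer probe set had -0.37. Rrm1, the large subunit of the same enzyme, differed by -0.19 (95% confidence interval -0.40 to 0.02), with groups that did not overlap. Tyms, the thymidylate synthase, had 9.51, 9.22 and 9.61 in N1ICD arrays and 10.07, 9.93 and 9.81 in control arrays. These are separate, with N1ICD replicate 2 lowest, and the difference of -0.49 ± 0.13 did not pass the test (adjusted p = 0.0632). The salvage enzyme Tk1, a thymidine kinase, differed by -0.28 (95% confidence interval -0.60 to 0.03) with groups that overlapped.

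**Figure D3:**
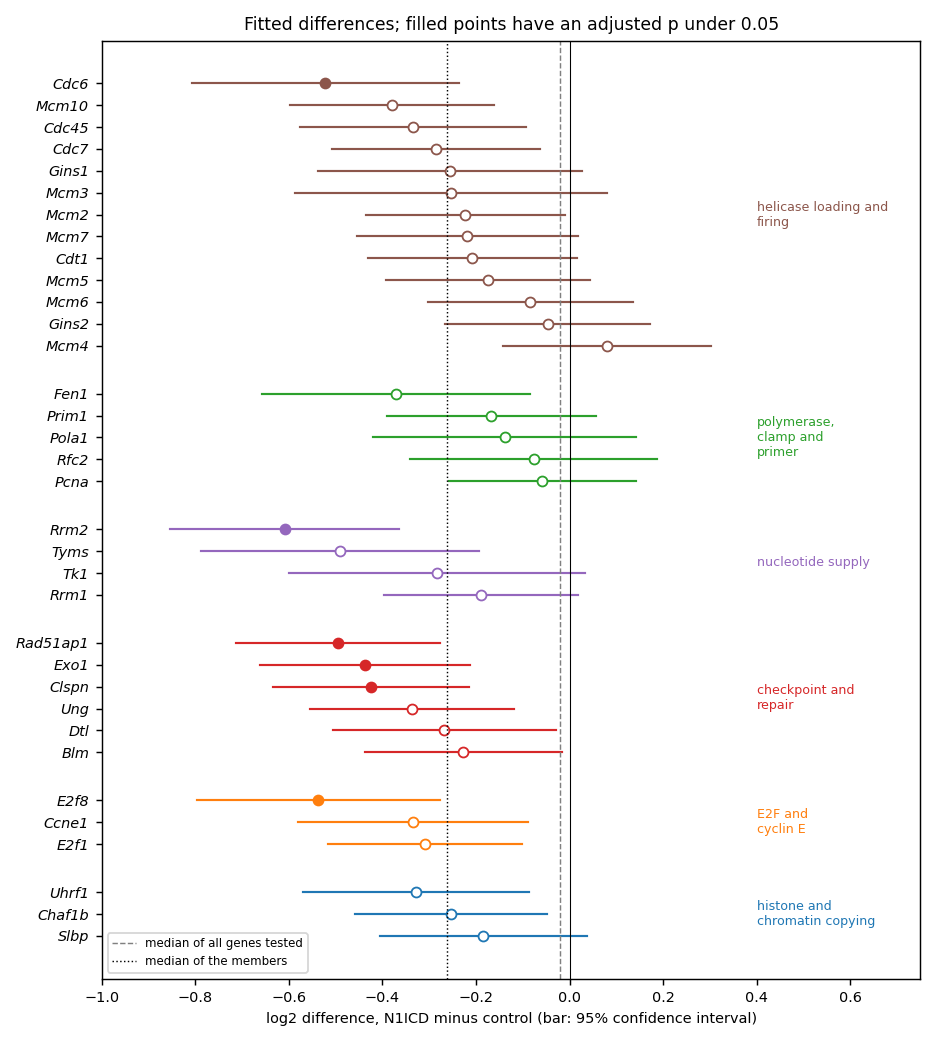
Log2 difference, N1ICD minus control, of each of the 34 genes (points, horizontal axis) with its 95% confidence interval from limma (bars), by role; filled points have an adjusted p under 0.05, and dashed and dotted lines mark the medians of all genes tested (-0.02) and of the members (-0.26). The filled points are Cdc6, Rrm2, Rad51ap1, Exo1, Clspn and E2f8, and Mcm4 is the point right of 0.

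Checkpoint and repair genes were separate between the groups throughout. Of 6 members 3 fell, and all 6 had groups that did not overlap and an unadjusted p under 0.05 (median log2 difference -0.38, from -0.49 to -0.23). Among genes above the 40th percentile, 5.12% were called lower, 21.6% were separate in that direction and 15.9% had such a p. Rad51ap1, which acts in repair by homologous recombination, had 7.42, 7.23 and 7.33 in N1ICD arrays, against 7.85, 7.79 and 7.82 in control arrays, a gap wide against the narrow spread of the control arrays. It fell to 0.710 of the control level (-0.49 ± 0.09, adjusted p = 0.0185). Exo1, an exonuclease of mismatch and break repair, had 9.18, 9.19 and 9.35 in N1ICD arrays and 9.68, 9.61 and 9.75 in control arrays. It fell by 0.44 on the log2 scale (SE 0.10, adjusted p = 0.0347). Clspn, the adaptor through which ATR activates CHK1 at stalled forks, had 9.18, 9.09 and 9.19 in N1ICD arrays and 9.63, 9.57 and 9.52 in control arrays, and fell by 0.43 on the log2 scale (SE 0.09, adjusted p = 0.029). Rad51ap1 lost its call without any array but N1ICD replicate 1 (adjusted p up to 0.0793), Exo1 without any but N1ICD replicate 3 (up to 0.13), and Clspn without each of the 6 arrays (0.059 to 0.114).

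The other members of the role did not pass the threshold. Ung, which removes uracil from DNA, differed by -0.34 (95% confidence interval -0.55 to -0.12, adjusted p = 0.0793). Dtl, the ubiquitin ligase adaptor that degrades CDT1 in S phase, differed by -0.27 (-0.51 to -0.03), and the helicase Blm by -0.23 (-0.44 to -0.02).

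E2F and cyclin E members were 3, after Ccne2 was left out. Of these 1 fell, and all 3 had separate groups and an unadjusted p under 0.05 (median log2 difference -0.34, from -0.54 to -0.31). Above the 40th percentile, 5.12% of genes were called lower, 21.6% were separate below control and 15.9% were lower at such a p. E2f8, an atypical E2F that represses E2F targets later in S phase, had 9.15, 8.81 and 9.02 in N1ICD arrays, against 9.59, 9.53 and 9.48 in control arrays. The N1ICD arrays spread more widely and lay below all control arrays, and E2f8 fell to 0.689 of the control level (-0.54 ± 0.11, adjusted p = 0.0273). That call held without N1ICD replicate 1 (0.0261) and was lost without any other array (up to 0.0917). E2f1, an activator of the burst at G1/S, had 8.51, 8.43 and 8.53 in N1ICD arrays and 8.76, 8.79 and 8.86 in control arrays. These are separate with little spread, and the difference was -0.31 ± 0.09 (adjusted p = 0.0882). Ccne1, the cyclin that drives CDK2 at the G1/S border, differed by -0.34 (95% confidence interval -0.58 to -0.09, adjusted p = 0.119).

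Histone and chromatin copying was represented by 3 members. None passed the test, and all 3 had separate groups (median log2 difference -0.25, from -0.33 to -0.18). Above the 40th percentile, 5.12% of genes were called lower and 21.6% were separate below control. Uhrf1, which guides maintenance methylation of new DNA, had 9.58, 9.72 and 9.87 in N1ICD arrays, against 10.01, 10.04 and 10.11 in control arrays, with no overlap (-0.33 ± 0.11, adjusted p = 0.119). Chaf1b, a subunit of the chaperone that places histones behind the fork, had 10.28, 10.24 and 10.32 in N1ICD arrays and 10.57, 10.47 and 10.56 in control arrays, again with no overlap (-0.25 ± 0.09, adjusted p = 0.155). Slbp, which binds the stem-loop of histone messages, differed by -0.18 (95% confidence interval -0.40 to 0.04).

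Set side by side by array, the roles differed in how evenly the N1ICD arrays lay. For checkpoint and repair genes the median difference from the control mean was -0.39, -0.40 and -0.36 in N1ICD replicates 1, 2 and 3, against 0.01, -0.01 and 0.03 in the control arrays. For helicase genes it was -0.29, -0.21 and -0.13, against -0.01, -0.04 and 0.04, and for polymerase genes -0.28, -0.13 and -0.05, against -0.03, 0.01 and 0.02. Nucleotide supply had -0.32, -0.55 and -0.36 in N1ICD arrays and 0.06, -0.02 and -0.02 in control arrays. Members of a role are not replicates, so the order of the roles carries no test. N1ICD replicate 3 was the highest of its group for 26 of the 34 genes, N1ICD replicate 1 the lowest for 19, and control replicate 3 the highest of its group for 20. For the 28 genes that did not pass the test, the 95% confidence interval excluded a 2-fold change in 28 and a 1.5-fold change in 23.

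**Figure D4:**
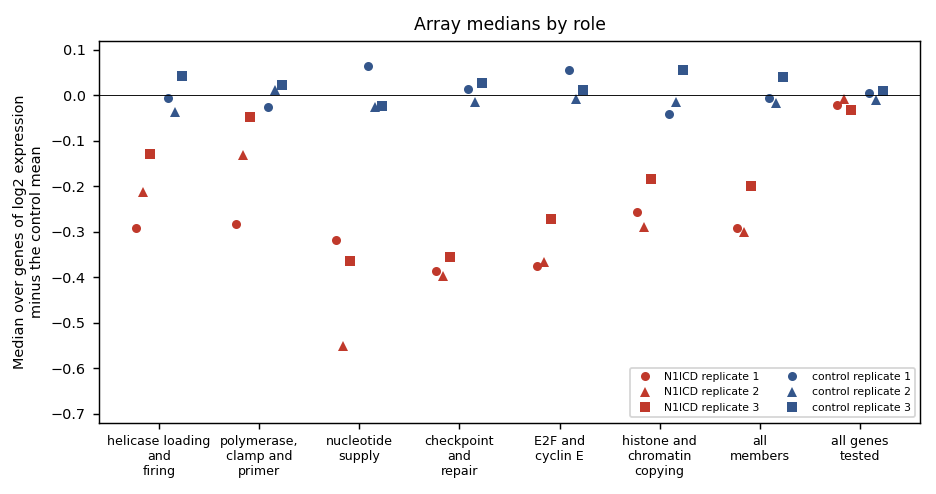
Median over the genes of a role of log2 expression minus the control mean (vertical axis), 1 point per array, for the 6 roles, all members and all genes tested. The 3 N1ICD points lie below the 3 control points in every role, closest together for checkpoint and repair (-0.40 to -0.36) and widest for polymerase genes (-0.28 to -0.05) and nucleotide supply (-0.55 to -0.32); all genes tested stay between -0.03 and 0.01.

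Further genes of the pathway, also listed with earlier results of these data known, were counted in the same way. Of 92 other replication and G1/S genes measured, 6 fell and 0 rose. The share called, 6.52%, was near the 5.12% of genes above the 40th percentile. A lower mean was found for 85 (92.4%, beside 57.6%) and separate groups, all lower in N1ICD, for 57 (62%, beside 21.6%), and at an unadjusted p under 0.05, 35 were lower and 0 higher (median log2 difference -0.22). E2f2, an activator E2F, fell most. It had 8.076, 8.002 and 8.241 in N1ICD arrays, against 9.024, 9.005 and 9.223 in control arrays, a wide gap, and fell to 0.508 of the control level (-0.98 ± 0.11, adjusted p = 0.00137). E2f2 kept its call without any 1 array (adjusted p 0.00448 to 0.00866). The others that fell were Rad54l, a recombination motor (-0.57 ± 0.13), Cdca7 (-0.53 ± 0.10), the Okazaki fragment nuclease Dna2 (-0.48 ± 0.10), the E2F partner Tfdp2 (-0.48 ± 0.09) and Ticrr, which helps to fire origins (-0.47 ± 0.11). Dna2 had 8.74, 8.50 and 8.70 in N1ICD arrays and 9.10, 9.18 and 9.10 in control arrays, and Tfdp2 had 8.67, 8.66 and 8.63 against 9.18, 9.13 and 9.07, both without overlap. With 1 array left out, Ticrr passed the threshold in 0 of 6 fits, Dna2 and Rad54l in 1, and Cdca7 and Tfdp2 in 2 (highest adjusted p 0.0672 to 0.154).

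Across the E2F family, the activators had log2 differences of -0.98 for E2f2, -0.31 for E2f1 and -0.19 for E2f3 (adjusted p = 0.313). The atypical repressors had -0.54 for E2f8 and -0.41 for E2f7 (adjusted p = 0.0943). The repressors that act with p107 and p130, E2f4 and E2f5, had -0.16 and -0.04, with overlapping groups, and E2f6 had -0.34 (adjusted p = 0.195). The dimer partners were -0.48 for Tfdp2 and -0.22 for Tfdp1 (adjusted p = 0.235). Rbl1, which encodes p107, the RB family member that the model keeps, differed by -0.08 (95% confidence interval -0.31 to 0.16). Only E2f2, E2f8 and Tfdp2 of these 11 genes passed the test.

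**Figure D5:**
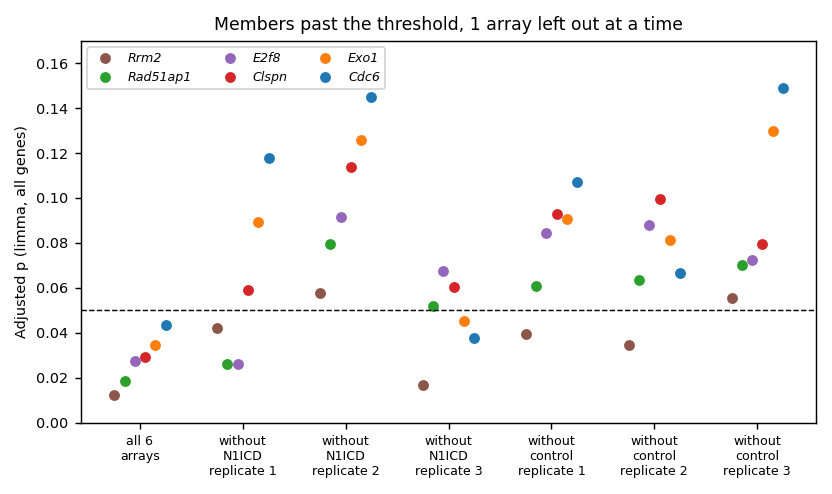
Adjusted p (vertical axis) of the 6 members past the threshold of 0.05 (dashed line), with all 6 arrays and with each array left out in turn (horizontal axis). With all arrays the 6 lie between 0.0124 and 0.0436; without N1ICD replicate 2 or control replicate 3 all 6 lie above the line, and Rrm2 is under it in the other 4 cases.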

How the data were processed

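Total RNA of 6 samples of KP1 cells was hybridized to Affymetrix arrays (Mouse Gene 2.0 ST), 1 per sample. The values are the authors' deposited log2 expression after RMA, per the submitters' processing notes, which give no version. Neither the base of the logarithm nor a genome build is stated there. Base 2 was taken because values reach 14.09, above 11.09, the natural log of the highest reading of a scanner of this type. RMA normalizes probe intensities by quantiles and compresses changes of dim probe sets.

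Of 41345 probe sets, 23521 carried 1 gene symbol in the platform annotation, 1814 several and 16010 none listed. The brightest single-symbol probe set stood for each of 22180 genes, with no filter on dim genes. N1ICD minus control was fitted with limma 3.58.1 in R 4.3.3 (lmFit, eBayes, two-sided, Benjamini-Hochberg adjustment over all genes, threshold 0.05). Each ± is the SE of that fit. The fit was run on simulated data with independent noise per gene. The planted differences were all larger in size than the median difference of the members, so that run does not measure power at that size. Array values are printed for members past the threshold, for the 2 members of each role with the smallest p, for the 2 nearest to 0 and for any with a higher mean. The members and lists were chosen with earlier results of these data known. Alternatives covered scaling, dim genes, probe sets, the variance model, the threshold, the replicate block and each array left out. Promoters were searched with Python 3.11.15, and figures drawn with matplotlib 3.10.9. Same-numbered arrays of the 2 groups had correlations of deviations over genes of 0.232, 0.00831 and 0.201 for numbers 1, 2 and 3. Taken crosswise, N1ICD replicate 1 with control replicate 3 had -0.197 and N1ICD replicate 3 with control replicate 1 had -0.235. Over all genes, arrays numbered 1 and 3 thus deviated together with their own number. Over the members alone the same-numbered correlations were 0.547, 0.0311 and 0.432, and the highest, 0.695, was N1ICD replicate 2 with control replicate 3. Whether same-numbered samples share a source was not tested. The main fit did not take the numbers as pairs, and the replicate block is among the alternatives.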

Additional observations from a re-analysis of the deposited data

How the results depend on the processing

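The number of members that fell was 6 with all arrays and 0 to 3 with 1 array left out: 0 without N1ICD replicate 2 or control replicate 3, 1 without control replicate 1 or 2, and 3 without N1ICD replicate 1 or 3. At an unadjusted p under 0.05, limma had 14 to 19 members lower in those 6 fits. With dim genes left out 10 members fell (16635 genes kept) or 13 (13308 genes kept), and 13 fell with an intensity trend and robust eBayes. Without moderation 2 fell, after cyclic loess 4, and with equal array medians or array quality weights 8. The count was 0 in a test against a 1.5-fold change, 0 at an adjusted p under 0.01 and 0 with every probe set tested, where 17 were lower at an unadjusted p under 0.05. No member rose in any of these fits. The median difference of the members was -0.32 with equal array medians, -0.20 with cyclic loess and -0.30 to -0.24 with 1 array left out. Gins2 had 0.0028 after quantile normalization again, 0.036 after cyclic loess and -0.083 to 0.010 with 1 array left out (0.010 without N1ICD replicate 2). Rfc2 had -0.149 to 0.027 with 1 array left out (0.027 without N1ICD replicate 1). Over all genes, 848 rose and 726 fell. With 1 array left out 548 to 709 rose and 275 to 585 fell. There were 730 rises and 948 falls with equal array medians, 955 and 606 with cyclic loess, 1008 and 1053 with 16635 genes kept, 999 and 1227 with 13308 genes kept, 1049 and 1227 with the trend, 952 and 910 with array weights, 402 rises and 196 falls without moderation, 255 and 27 against a 1.5-fold change, 460 and 208 at an adjusted p under 0.01, and 548 and 257 with every probe set tested. With the replicate block, 6 members fell, 6 of them shared with the fit without it, and Dna2 did not pass (adjusted p = 0.0563). Over all genes, N1ICD replicate 2 had correlations of deviations near 0 with control replicates 1, 2 and 3 (-0.0275, 0.00831 and 0.0221). Over the members alone these were -0.611, 0.0311 and 0.695. The cause of these changes was not tested, apart from the number of genes or arrays that an alternative itself removes or adds. The values used here hold no detection calls, so signal over background is unknown.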

Other observations

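Neighbouring programs of growth were lower in N1ICD as well. Of 51 mitosis genes measured, 8 fell and 0 rose, 50 had a lower mean and 39 had separate groups in that direction, with 1 the other way (median log2 difference -0.31). At an unadjusted p under 0.05, limma had 31 of them lower and 0 higher. Of 38 ribosome biogenesis genes measured, 20 fell and 0 rose, all 38 had a lower mean and 36 had separate groups (median -0.42), and 34 were lower and 0 higher at an unadjusted p under 0.05. Over all genes 3.27% were called lower, 54.5% had a lower mean, 15% were separate below control and 11.2% were lower at that unadjusted p. Among genes above the 40th percentile these shares were 5.12%, 57.6%, 21.6% and 15.9%. These lists too were chosen with earlier results of these data known, and their difference from the replication genes was not tested. Of 11 housekeeping genes 0 passed the test, 1 was higher and 0 lower at an unadjusted p under 0.05, and the median was 0.03.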
